A study of Mus musculus with 9 samples.

Results

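The genes described are the enzymes that carry glucose to pyruvate, the enzymes that set the pace of that route, and the pyruvate dehydrogenase complex with the kinases and phosphatases that switch it. They are 33 genes of the 40879 symbols in the deposited tables, matched by symbol, and all 33 were present, had counts in the libraries and passed the filter on low counts. RNA of male mouse spinal cord was sequenced in 9 libraries, 3 from each of 3 groups. Sham stands, in common use, for a control operation without the nerve injury. The SNI group had, in the usual meaning of that abbreviation in pain research, a spared nerve injury, in which some branches of the sciatic nerve are cut and others left intact. The SNI+LDN193189 group carried the same injury and also received LDN193189, a small-molecule inhibitor of BMP type I receptor kinases such as ACVR1. The series title names ACVR1 and a shift of glycolysis in neuropathic pain, which is the question these comparisons address at the level of RNA. Strain, age, cord segment, time after injury, dose and vehicle were not in the labels used here. The labels call the replicates biosamples and do not say that each came from its own animal, so the p-values speak to the variation among these libraries alone, which may be technical.

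The columns of the tables carry only the letters S, N and L, read here as sham, SNI and SNI+LDN193189. The letter S would also fit SNI, and under another reading the directions between sham and SNI would turn. Sprr1a, a gene known to be switched on in injured neurons, was looked up as a check after the letters had been assigned. It stood at 0.161 to 0.234 CPM (counts relative to the size of the library) in the libraries read as sham, 6.62 to 23.0 in SNI and 0.687 to 17.4 in SNI+LDN193189. Libraries held 33432776 to 37190467 counts, and 70.7 to 71.8% of the counts above 0 were even numbers, for which the labels give no reason. Marker genes fitted spinal cord for the most part: the 12 neuron markers and 11 oligodendrocyte markers passed the filter. Aqp4 of astrocytes and P2ry12 of microglia were listed at 0. Whether a gene listed at 0, here or below, lacked RNA or was lost in annotation or counting was not tested. Sham replicate 1 held far more skeletal muscle RNA than the rest, with 890 CPM summed over 12 muscle markers against 5.53 to 22.8 in the other libraries. Sham replicate 3 had the highest sum of 10 Schwann cell and nerve root markers, 7121 CPM against 1562 and 3049 in the rest of sham. The sum was 1037 to 1579 CPM in SNI and 1548 to 2751 CPM in SNI+LDN193189. Since the measurement is of whole cord, fewer cells of a type and less RNA per cell cannot be told apart.

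Glycolysis splits glucose into pyruvate in a chain of steps, spending ATP at hexokinase and phosphofructokinase and regaining it at phosphoglycerate kinase and pyruvate kinase. Pyruvate is then either reduced to lactate or oxidised to acetyl-CoA by the pyruvate dehydrogenase (PDH) complex in mitochondria. PDH kinases (the Pdk genes) phosphorylate the complex and turn it off, and PDH phosphatases (Pdp1 and Pdp2) turn it on again. In nervous tissue astrocytes are known for high glycolytic capacity and neurons for oxidative use of pyruvate, and several steps have isozymes preferred by 1 cell type or the other.

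Most of these genes varied little between the 9 libraries, at levels that ranged from low to very high. Together they took 0.848 to 0.931% of the counts of a library, and their summed level was 3204, 3246 and 3051 FPKM in sham, 3282, 3231 and 3306 FPKM in SNI and 3310, 3358 and 3281 FPKM in SNI+LDN193189. FPKM divides counts by gene length and library total and so allows levels of different genes to be set side by side. The sums of sham and SNI overlapped, since sham replicate 2 lay above SNI replicate 2. In 25 of the 33 genes the highest of the 9 libraries was less than 1.25 times the lowest in CPM, and 8 reached or passed that limit. The share of all genes under that limit was not counted. The FPKM level averaged over 100 in 9 genes, between 5 and 100 in 17 and under 5 in 7. One limit applies to every level in FPKM: the table rests on 1 fixed length per gene, and in 13 of the 33 genes that length differed by more than 1.5-fold from the summed exon length in GENCODE M21.

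**Figure D1:**
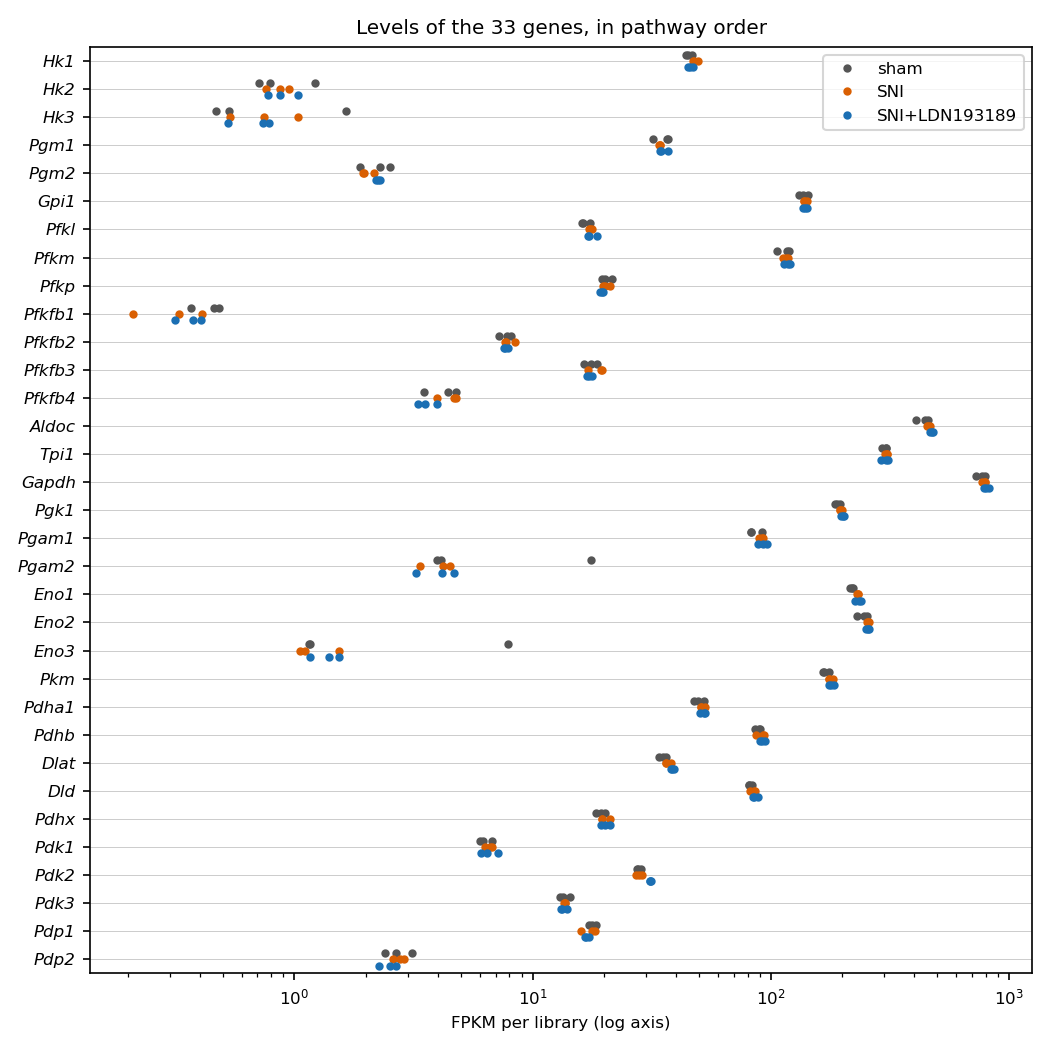
Level of each of the 33 genes in each library, in FPKM on a log axis, ordered along the pathway, with 3 dots per group. The dots of most genes lie on top of each other; Pgam2 and Eno3 have a single sham library far to the right, at 17.6 and 7.91 FPKM.

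The plot of levels in pathway order shows a gene pattern that repeated in all 9 libraries. At the entry, Hk1, the hexokinase bound to mitochondria in brain, stood at 44.0, 46.8 and 44.8 FPKM in sham, 47.0, 47.6 and 49.6 in SNI and 45.7, 47.1 and 45.1 in SNI+LDN193189. The inducible Hk2 (0.713 to 1.22 FPKM) and Hk3 (0.470 to 1.65 FPKM) were near the bottom of the range. Hk3, a hexokinase known from white blood cells, was highest in sham replicate 3, at 5.59 CPM against 1.61 to 3.54 CPM elsewhere. That library also held 254 CPM over 8 blood leukocyte markers against 9.41 to 41.6 CPM in the others (Ms4a1 of B cells was listed at 0), and the part of those cells in the Hk3 level was not tested. Phosphoglucomutase, which links glycogen to glucose 6-phosphate, was mostly Pgm1, at 37.0, 36.7 and 31.9 FPKM in sham, 34.4, 33.9 and 34.4 in SNI and 34.4, 34.6 and 37.2 in SNI+LDN193189. Pgm2 lay between 1.88 and 2.51 FPKM. These symbols have been exchanged between annotation releases, and the 2 symbols are used here as the deposited table has them.

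Gpi1, which turns glucose 6-phosphate into fructose 6-phosphate, stood at 143, 131 and 137 FPKM in sham, 137, 138 and 142 in SNI and 137, 139 and 142 in SNI+LDN193189. At the committed step the RNA with the highest FPKM was Pfkm, the muscle-type phosphofructokinase that brain also makes. It stood at 119, 117 and 106 FPKM in sham, 112, 115 and 119 in SNI and 118, 121 and 113 in SNI+LDN193189. The liver-type Pfkl lay at 16.1 to 18.6 FPKM and the platelet-type Pfkp at 19.1 to 21.6 FPKM. The PFKFB enzymes make and break fructose 2,6-bisphosphate, the strongest activator of phosphofructokinase, and Pfkfb3, the form with the highest kinase activity, was the most abundant of them. Its level was 18.7, 17.6 and 16.4 FPKM in sham, 19.5, 17.2 and 19.3 in SNI and 17.7, 17.3 and 17.0 in SNI+LDN193189. Pfkfb2 (7.24 to 8.40 FPKM), Pfkfb4 (3.31 to 4.77 FPKM) and Pfkfb1 (0.210 to 0.484 FPKM) followed.

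Of the aldolases only Aldoc, the brain form and a marker of astrocytes, is among the 33. Aldoa was listed at 0 in all 9 libraries, which is not read here as absence from the cord. Aldoc stood at 443, 456 and 407 FPKM in sham, 459, 455 and 465 in SNI and 477, 480 and 464 in SNI+LDN193189. Sham replicate 3 was the lowest library, and SNI+LDN193189 did not overlap with sham but did with SNI. Tpi1, which interconverts the 2 triose phosphates, stood at 306, 305 and 293 FPKM in sham, 307, 302 and 308 in SNI and 306, 310 and 290 in SNI+LDN193189. Gapdh, often used as a reference gene, was the highest of all in FPKM, at 772, 792 and 731 FPKM in sham, 794, 772 and 793 in SNI and 788, 827 and 800 in SNI+LDN193189. In both genes the sham range overlapped the other groups.

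In the payoff steps, Pgk1, the kinase that regains the first ATP, stood at 189, 195 and 185 FPKM in sham, 199, 195 and 195 in SNI and 203, 201 and 197 in SNI+LDN193189. Pgam1, the brain-type phosphoglycerate mutase, stood at 82.8, 91.5 and 83.0 FPKM in sham, 92.4, 89.4 and 91.5 in SNI and 96.7, 88.5 and 93.2 in SNI+LDN193189, and sham replicate 2 fell within the range of both injured groups. Enolase was shared between Eno2, the neuronal form, and Eno1, the form of glia and most other cells. Eno2 stood at 246, 255 and 230 FPKM in sham, 253, 256 and 258 in SNI and 252, 255 and 258 in SNI+LDN193189. Pkm, pyruvate kinase, stood at 168, 176 and 165 FPKM in sham, 176, 176 and 182 in SNI and 176, 185 and 179 in SNI+LDN193189. In these genes sham replicate 3 was at or near the low end of its group.

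In FPKM the PDH complex was led by Pdhb, the E1 beta subunit, at 86.1, 90.0 and 89.5 FPKM in sham, 93.0, 86.8 and 93.9 in SNI and 94.4, 90.1 and 91.9 in SNI+LDN193189. Dld, the E3 subunit shared with other dehydrogenases, lay at 80.8 to 88.2 FPKM and Pdha1, the X-linked E1 alpha subunit, at 47.8 to 52.9 FPKM. Dlat, the E2 core, lay at 34.0 to 39.1 FPKM and Pdhx, which tethers E3 to that core, at 18.4 to 21.2 FPKM. The rank of Pdhb rests on its deposited length of 1611 bases, against 3861 bases of exon in GENCODE M21. By average log2 CPM, with no length, Dld led at 7.57, and Pdhb stood at 7.19. Among the kinases Pdk2 stood at 27.4, 28.5 and 27.8 FPKM in sham, 28.8, 27.3 and 27.9 in SNI and 31.4, 31.3 and 31.0 in SNI+LDN193189, so that the SNI+LDN193189 libraries lay above all others. Pdk3 lay at 13.1 to 14.4 FPKM and Pdk1 at 6.02 to 7.15 FPKM. Among the phosphatases Pdp1 stood at 17.8, 18.5 and 17.3 FPKM in sham, 17.8, 18.2 and 16.0 in SNI and 17.3, 16.6 and 16.8 in SNI+LDN193189, and Pdp2 lay at 2.27 to 3.11 FPKM.

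To set sequence beside the values, 4 promoters are shown before the comparisons: Pgk1, whose promoter is a textbook target of the hypoxia factor HIF-1, Pdk2 and Dlat, the genes with the smallest p in the joint test of the 3 groups, and Pgam1, a further gene of the payoff steps. Each is the 250 bases before the start of a RefSeq transcript (build GRCm38.p6), 5′ to 3′ on the gene's strand. The windows are chrX:106186850-106187099 (plus strand), chr11:95041372-95041621 (minus strand), chr19:41911621-41911870 (plus strand) and chr9:50659781-50660030 (minus strand), and none overlaps an exon of GENCODE M21. Capitals mark ACGTG or GCGTG, the core letters of the hypoxia response element, read on either strand.
Pgk1: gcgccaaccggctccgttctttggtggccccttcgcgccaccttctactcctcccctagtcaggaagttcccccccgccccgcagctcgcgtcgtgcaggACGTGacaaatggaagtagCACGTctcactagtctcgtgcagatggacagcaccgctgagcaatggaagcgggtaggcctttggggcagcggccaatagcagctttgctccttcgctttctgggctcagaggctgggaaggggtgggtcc
Pdk2: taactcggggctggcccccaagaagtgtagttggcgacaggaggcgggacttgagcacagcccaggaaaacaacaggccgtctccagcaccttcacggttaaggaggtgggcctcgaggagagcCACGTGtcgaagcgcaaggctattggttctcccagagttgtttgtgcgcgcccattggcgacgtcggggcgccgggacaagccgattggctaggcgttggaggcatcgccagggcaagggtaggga
Pgam1: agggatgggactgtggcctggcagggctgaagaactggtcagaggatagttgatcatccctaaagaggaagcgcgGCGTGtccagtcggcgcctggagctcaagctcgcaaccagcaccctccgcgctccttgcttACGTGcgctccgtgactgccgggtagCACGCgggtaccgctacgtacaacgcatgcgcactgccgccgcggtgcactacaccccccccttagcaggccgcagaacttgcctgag
Dlat: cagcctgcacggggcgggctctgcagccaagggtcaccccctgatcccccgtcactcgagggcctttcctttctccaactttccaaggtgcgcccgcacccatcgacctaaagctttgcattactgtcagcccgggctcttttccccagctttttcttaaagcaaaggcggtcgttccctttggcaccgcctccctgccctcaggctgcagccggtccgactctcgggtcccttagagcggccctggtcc
In Pgk1 the marked words begin 150 and 131 bases before the start. In Pdk2 the capitals form CACGTG, the E-box palindrome, which holds ACGTG on both strands and begins 126 bases before the start. RefSeq gives Pdk2 a second promoter (chr11:95040876-95041125), in which neither word occurred. The Pgam1 window held 3 marked words and the Dlat window none. RefSeq promoters were found for 32 of the 33 genes, and Pdp1 had no entry. ACGTG occurred in a promoter of 14 of these 32 genes (43.8%) against 20.0% of 17491 protein-coding genes, and GCGTG in 18 (56.2%) against 36.7%. Either word occurred in 26 of 32 genes (81.2%) against 47.1%, or, counted by promoter, in 34 of 48 (70.8%) against 44.0%. CACGTG, which overlaps ACGTG, occurred in 5 of 32 (15.6%) against 7.61%, and the GC box GGGCGG in 20 (62.5%) against 45.8%. Counted by promoter the shares were 35.4% against 17.8% for ACGTG, 47.9% against 33.8% for GCGTG, 10.4% against 6.63% for CACGTG and 45.8% against 42.6% for GGGCGG. The 32 genes had 48 promoters, and the 17491 genes 21262. The promoters of these genes had a median GC content of 59.0% against 55.6%. A match is a description of letters and says nothing of binding in this tissue.

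None of the 33 genes differed between SNI and sham by the edgeR quasi-likelihood test, in which 0% of the 18245 genes tested were called at an adjusted p (Benjamini-Hochberg) under 0.05. The lowest adjusted p among the 33 was 0.927, and 0 of 33 had an unadjusted p under 0.05, beside 5.33% of all genes. DESeq2, which gave 32 of the 33 an adjusted p, called 0 of them, beside 0.11% of the genes it tested. The estimates were narrow: in 26 of 33 genes the 95% interval of the fold change lay within 1.25-fold either way, between 0.867 and 1.18. The other 7 were Eno3, Hk2, Hk3, Pfkfb1, Pfkfb4, Pgam2 and Pgm2.

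**Figure D2:**
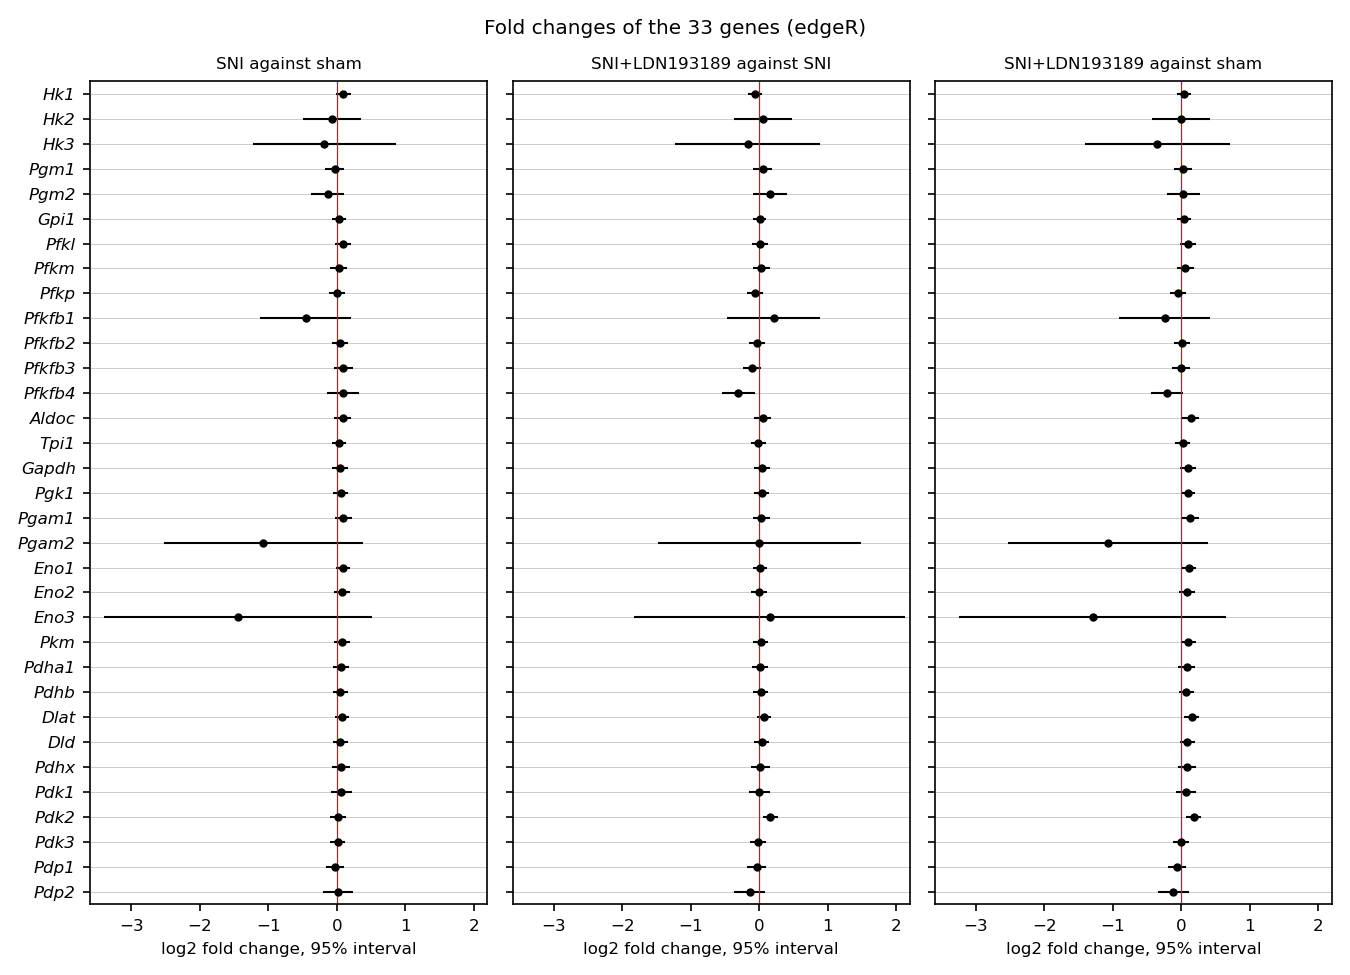
Log2 fold change of each of the 33 genes with its 95% interval from the edgeR fit, in 3 panels for the 3 comparisons, in pathway order, with a line at 0. Most intervals are short and lie close to 0; those of Eno3 and Pgam2 are the widest, and Pdk2 is above 0 in both panels that hold SNI+LDN193189.

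The log2 fold change was above 0 in 25 of 33 genes, with a median of 0.05, beside 50.1% of all genes and a median of 0.00 over all genes. Along the route this held for 16 of the 23 genes from hexokinase to pyruvate kinase and for 9 of the 10 PDH genes, including all 5 subunits of the complex (0.05 to 0.08). These counts moved with the libraries and covariates used, in both directions. Sham replicate 3 was below the mean of the 9 libraries in most of these genes, with only 6 of 33 above it, where other libraries had 12 to 27. That library also had the highest nerve root markers. Their mean log2 CPM was 5.05, 6.30 and 7.56 in sham and 3.71, 4.69 and 5.11 in SNI. In SNI+LDN193189 it was 6.07, 5.28 and 5.06. With sham replicate 3 left out, 21 of 33 genes were above 0 and the median was 0.02. With those markers entered as a covariate, 17 of 33 were above 0 with a median of 0.01. Muscle marker level as a covariate gave 28 of 33 and a median of 0.07. The mean log2 CPM of the muscle markers was 5.40, 0.386 and -0.307 in sham and -1.46, -1.42 and -1.78 in SNI. Since both marker levels were mostly lower in SNI than in sham, these fits cannot separate group from marker level. The count was 26 without SNI replicate 2, 26 without SNI replicate 3 and 23 without SNI replicate 1. Without sham replicate 2 it was 25, with a median of 0.06. Among markers of cord cells, 9 of 9 microglia markers were above 0 (median 0.20, 6 with an unadjusted edgeR p under 0.05), and their summed level was 272 to 308 CPM in sham and 311 to 350 CPM in SNI, without overlap. Of the oligodendrocyte markers 10 of 11 were above 0 (median 0.11) and of the neuron markers 9 of 12 (median 0.10). Of the astrocyte markers 6 of 10 were above 0 (median 0.04) and of the endothelial markers 1 of 8 (median -0.07). Outside the cord cells the shifts were larger. Schwann cell and nerve root markers had 0 of 10 above 0 (median -2.26, 9 with an unadjusted edgeR p under 0.05). Meningeal fibroblast markers had 0 of 10 above 0 (median -1.36, 3 at that p). Skeletal muscle markers had 1 of 12 above 0 (median -6.85, 10 at that p). EdgeR called none of these markers and DESeq2 called 1, Opalin of oligodendrocytes, and their part in the counts of the 33 genes was not tested.

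Eno1, the non-neuronal enolase (chr4:150236721-150248879), had the smallest p of this comparison. It stood at 425, 443 and 432 CPM in sham and 472, 460 and 458 CPM in SNI. The 3 SNI libraries lay above the 3 sham libraries, and the log2 fold change was 0.10 (SE 0.0475, edgeR adjusted p = 0.927). Hk1 stood at 234, 256 and 235 CPM in sham and 257, 256 and 263 CPM in SNI, which also did not overlap, though SNI replicate 2 and sham replicate 2 were nearly equal (log2 fold change 0.10, SE 0.0505, edgeR adjusted p = 0.929). These were the only genes of the 33 without overlap in this comparison (6.06%), beside 8.87% of all genes tested, and 4.45% of all genes had the SNI libraries on top. Pgam1 stood at 150, 170 and 148 CPM in sham and 171, 164 and 165 CPM in SNI, where sham replicate 2 lay inside the SNI range (log2 fold change 0.10, SE 0.0582, edgeR adjusted p = 0.941). Pfkl stood at 64.9, 66.5 and 69.1 CPM in sham and 72.0, 72.3 and 69.1 CPM in SNI, with sham replicate 3 as high as SNI replicate 3 (log2 fold change 0.09, SE 0.0547, edgeR adjusted p = 0.941).

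The muscle forms of enolase and phosphoglycerate mutase were high in a single library. Eno3 (chr11:70657202-70662513), the enolase of skeletal muscle, stood at 42.6, 6.45 and 6.10 CPM in sham, 5.86, 6.05 and 8.30 in SNI and 6.35, 7.70 and 8.45 in SNI+LDN193189. Pgam2, the mutase of muscle, stood at 15.7, 3.63 and 3.63 CPM in sham, 4.13, 3.79 and 3.02 in SNI and 2.93, 3.79 and 4.24 in SNI+LDN193189. Sham replicate 1 was the high library in both. It was also the library with the muscle markers, among them Acta1, skeletal actin, at 222 CPM against 0.511 to 4.16 CPM and Ckm, muscle creatine kinase, at 59.9 CPM against 0.221 to 1.03 CPM. For SNI against sham the log2 fold change of Eno3 was -1.45 (SE 0.807, edgeR adjusted p = 0.941). Without sham replicate 1 it was 0.10 (SE 0.185), and with the muscle marker level as a covariate it was 0.80.

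**Figure D3:**
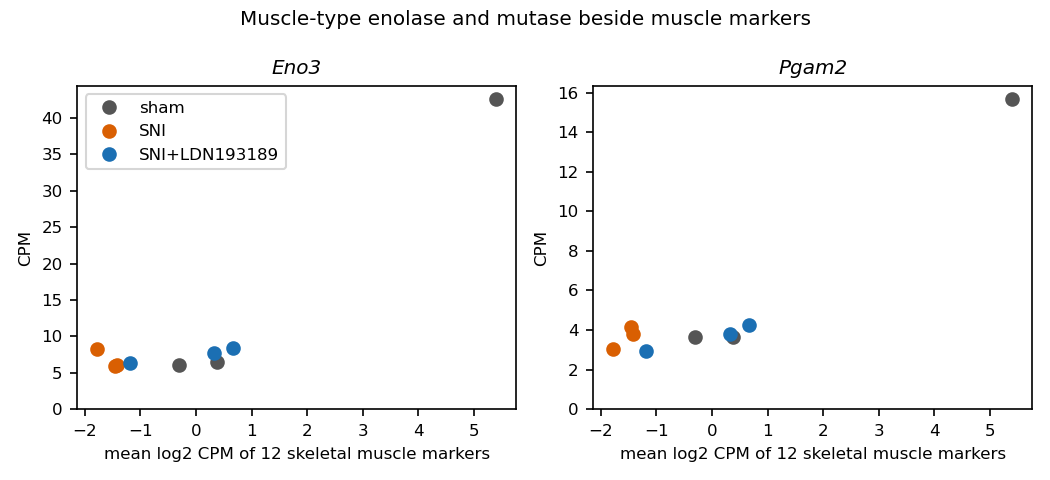
Level of Eno3 and Pgam2 in each library in CPM against the mean log2 CPM of 12 skeletal muscle markers, 1 dot per library. The sham library at the far right, at 42.6 CPM for Eno3 and 15.7 CPM for Pgam2, is sham replicate 1; the other 8 lie at or below 8.45 and 4.24 CPM.

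Between SNI+LDN193189 and SNI, 0 of the 33 genes were called by edgeR, beside 0.00548% of all genes, and 0 of the 32 with an adjusted p by DESeq2, beside 0.0191% of the genes it tested. The lowest adjusted p was 0.9996. At an unadjusted p under 0.05 there were 2 of 33 (6.06%) beside 3.88% of all genes, Pdk2 with a positive fold change (1.69% of all genes) and Pfkfb4 with a negative one (2.19% of all genes). In 25 of 33 genes the 95% interval lay within 1.25-fold either way, between 0.848 and 1.21. The log2 fold change was above 0 in 23 of 33 genes, with a median of 0.02, beside 49.8% of all genes and a median of 0.00 over all genes. The median was 0.01 without SNI+LDN193189 replicate 2 and 0.03 without SNI replicate 1, and the count at an unadjusted p under 0.05 was 1 without SNI replicate 1, 1 without SNI+LDN193189 replicate 3 and 3 without SNI replicate 2. This comparison shares the SNI libraries with the first and the SNI+LDN193189 libraries with the third, so the directions in the 3 are not independent.

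Pdk2 (chr11:95026258-95041354), the most widely expressed PDH kinase, had the smallest p. It stood at 70.0, 75.1 and 70.4 CPM in sham, 75.7, 70.7 and 71.4 in SNI and 81.5, 82.1 and 80.6 in SNI+LDN193189. The 3 SNI+LDN193189 libraries lay above the other 6 and close together, while sham and SNI overlapped. The log2 fold change against SNI was 0.16 (SE 0.0532, edgeR adjusted p = 0.9996), which is 1.12-fold with a 95% interval of 1.04 to 1.21.

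Pfkfb4 (chr9:108991778-109032228), a PFKFB form known to respond to low oxygen, stood at 21.5, 17.5 and 22.9 CPM in sham, 23.4, 19.5 and 23.1 in SNI and 19.5, 17.6 and 16.3 in SNI+LDN193189. SNI+LDN193189 replicate 1 came just under SNI replicate 2, and sham overlapped both groups. The log2 fold change against SNI was -0.30 (SE 0.112, edgeR adjusted p = 0.9996), or 0.810-fold with a 95% interval of 0.687 to 0.955. Its relative Pfkfb3 stood at 127, 110 and 122 CPM in SNI and 114, 112 and 109 CPM in SNI+LDN193189, which overlapped (log2 fold change -0.10, SE 0.0642, edgeR adjusted p = 0.9996). For the 4 PFKFB genes together, 3 lay below 0 and Pfkfb1, at about 1 CPM, above.

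**Figure D4:**
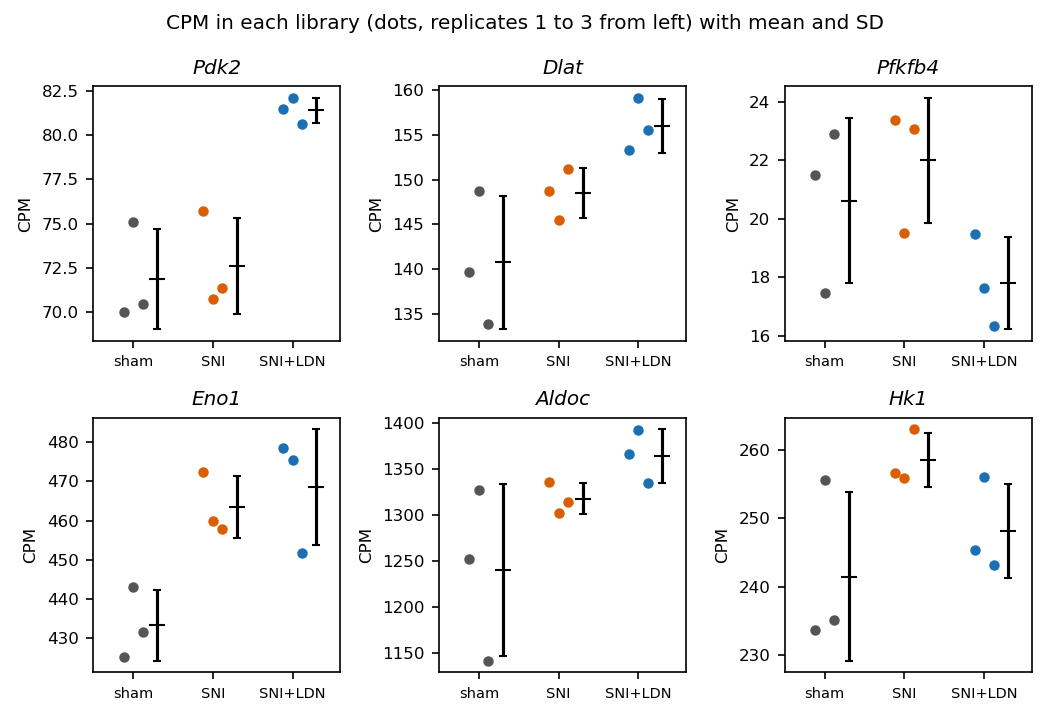
Level in CPM of 6 genes in each library (dots, replicates 1 to 3 from left) with the group mean and SD (bars, n = 3). The axes do not start at 0; the SNI+LDN193189 dots of Pdk2, at 80.6 to 82.1 CPM, lie above those of the other groups, while those of Hk1 overlap both.

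Dlat (chr9:50634633-50659780) stood at 140, 149 and 134 CPM in sham, 149, 146 and 151 in SNI and 153, 159 and 155 in SNI+LDN193189. All SNI+LDN193189 libraries were above all SNI libraries, by a log2 fold change of 0.07 (SE 0.0508, edgeR adjusted p = 0.9996). Pgm2 stood at 12.2, 10.3 and 13.2 CPM in sham, 10.7, 10.4 and 11.5 in SNI and 12.1, 11.9 and 12.3 in SNI+LDN193189, with sham spanning the range of both (log2 fold change against SNI 0.16, SE 0.114, edgeR adjusted p = 0.9996). In all, 4 of 33 genes (12.1%) had no overlap between SNI+LDN193189 and SNI, beside 11.3% of all genes. Pdk2, Dlat and Pgm2 were on the high side (9.09%, beside 5.71%) and Pfkfb4 on the low side (3.03%, beside 5.55%).

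Between SNI+LDN193189 and sham, 0 of 33 genes were called by edgeR, beside 0.0164% of all genes, and 0 of the 31 with an adjusted p by DESeq2, beside 0.501% of the genes it tested. The lowest adjusted p was 0.425. At an unadjusted p under 0.05 there were 5 of 33 (15.2%), all with positive fold changes, beside 8.56% of all genes in either direction and 4.07% with positive ones. That count depended on the sham libraries: it was 13 without sham replicate 2, 3 without sham replicate 1 and 3 without sham replicate 3. It was also 3 when SNI+LDN193189 replicate 1 was left out, and 3 when replicate 2 of that group was. In 26 of 33 genes the 95% interval lay within 1.25-fold either way, between 0.862 and 1.23. The log2 fold change was above 0 in 22 of 33 genes with a median of 0.04, beside 48% of all genes and a median of -0.01 over all genes. The median was 0.07 without sham replicate 2 and 0.03 without sham replicate 3.

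The 5 genes were Pdk2, Dlat, Aldoc, Eno1 and Pgam1. Pdk2 had a log2 fold change of 0.18 (SE 0.0532, edgeR adjusted p = 0.425), or 1.13-fold with a 95% interval of 1.05 to 1.23. Dlat had 0.15 (SE 0.0508, edgeR adjusted p = 0.515), with all 3 treated libraries above sham. Aldoc stood at 1252, 1328 and 1141 CPM in sham, 1336, 1303 and 1314 in SNI and 1366, 1393 and 1334 in SNI+LDN193189, again with all treated libraries above sham (log2 fold change 0.14, SE 0.0573, edgeR adjusted p = 0.557). Eno1, at 479, 475 and 452 CPM in SNI+LDN193189, had 0.11 (SE 0.0475, edgeR adjusted p = 0.559). Pgam1, at 177, 164 and 171 CPM in SNI+LDN193189, had 0.13 (SE 0.0582, edgeR adjusted p = 0.574), and its sham replicate 2 lay inside the treated range. Eno1, Dlat, Pfkl, Aldoc and Pdk2 had no overlap with sham (15.2%), beside 13.1% of all genes in either direction and 6.81% with SNI+LDN193189 on top. In this comparison 9 of 9 microglia markers were above 0 (median 0.28, 7 with an unadjusted edgeR p under 0.05). Oligodendrocyte markers had 9 of 11 above 0 (median 0.11, 5 at that p) and neuron markers 8 of 12 (median 0.04, 1 at that p). Of the astrocyte markers 7 of 10 were above 0 (median 0.02), and Gja1 was below (-0.22). DESeq2 called Gja1 and, of microglia, C1qb. The part of these cells in the 5 genes was not tested.

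By role, the 5 subunits of the PDH complex were above 0 in SNI against sham (median 0.06), beside 50.1% of all genes. They were also above 0 in SNI+LDN193189 against SNI (median 0.02), beside 49.8% of all genes. Their place above 0 in SNI+LDN193189 against sham (median 0.08) follows from those 2 and adds no further evidence. The 2 phosphatases were below 0 in both comparisons that hold SNI+LDN193189 (-0.03 and -0.14 against SNI, -0.06 and -0.12 against sham). None of these passed the test. The joint test of the 3 groups also called 0 of the 33 genes by edgeR, beside 0.00548% of all genes, and 0 of 32 by DESeq2, beside 0.463% of the genes it tested. At an unadjusted p under 0.05 there were 3 of 33, beside 5.94% of all genes. Its smallest p-values were 0.00646 for Pdk2, 0.0337 for Dlat, 0.0437 for Pfkfb4, 0.0649 for Eno1 and 0.0832 for Aldoc, with adjusted p from 0.693 to 0.832 by edgeR.

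The choice of isozyme at a step was also compared, as the share of the leading gene in the summed FPKM of its family in each library. Each family held only isozymes among the genes defined at the start, and other isozymes, such as Pdk4, were left out. Hk1 made up 96.5% of hexokinase on average over the 9 libraries, Pfkm 75.6% of phosphofructokinase, Pfkfb3 59.3% of the PFKFB genes and Pdp1 86.7% of PDH phosphatase. By CPM, with no length, Pfkm held 55.5% and Pfkp 34.4%, where Pfkp had 13.1% by FPKM. Pgm1 made up 94.2% of phosphoglucomutase, given as a description only. Eno2 held 52.2% and Eno1 47.4% of enolase, and Eno2 kept within 50.7 to 53.6% in all libraries. That near balance rests on the deposited gene lengths: by CPM, with no length, Eno2 held 64.4% and Eno1 34.8%, and by GENCODE M21 exon length 66.3% and 31.4%. Pgam1 made up 94.3% of its family on average but 82.5% in sham replicate 1, the library with the muscle markers, against 95.2 to 96.8% in the other 8.

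**Figure D5:**
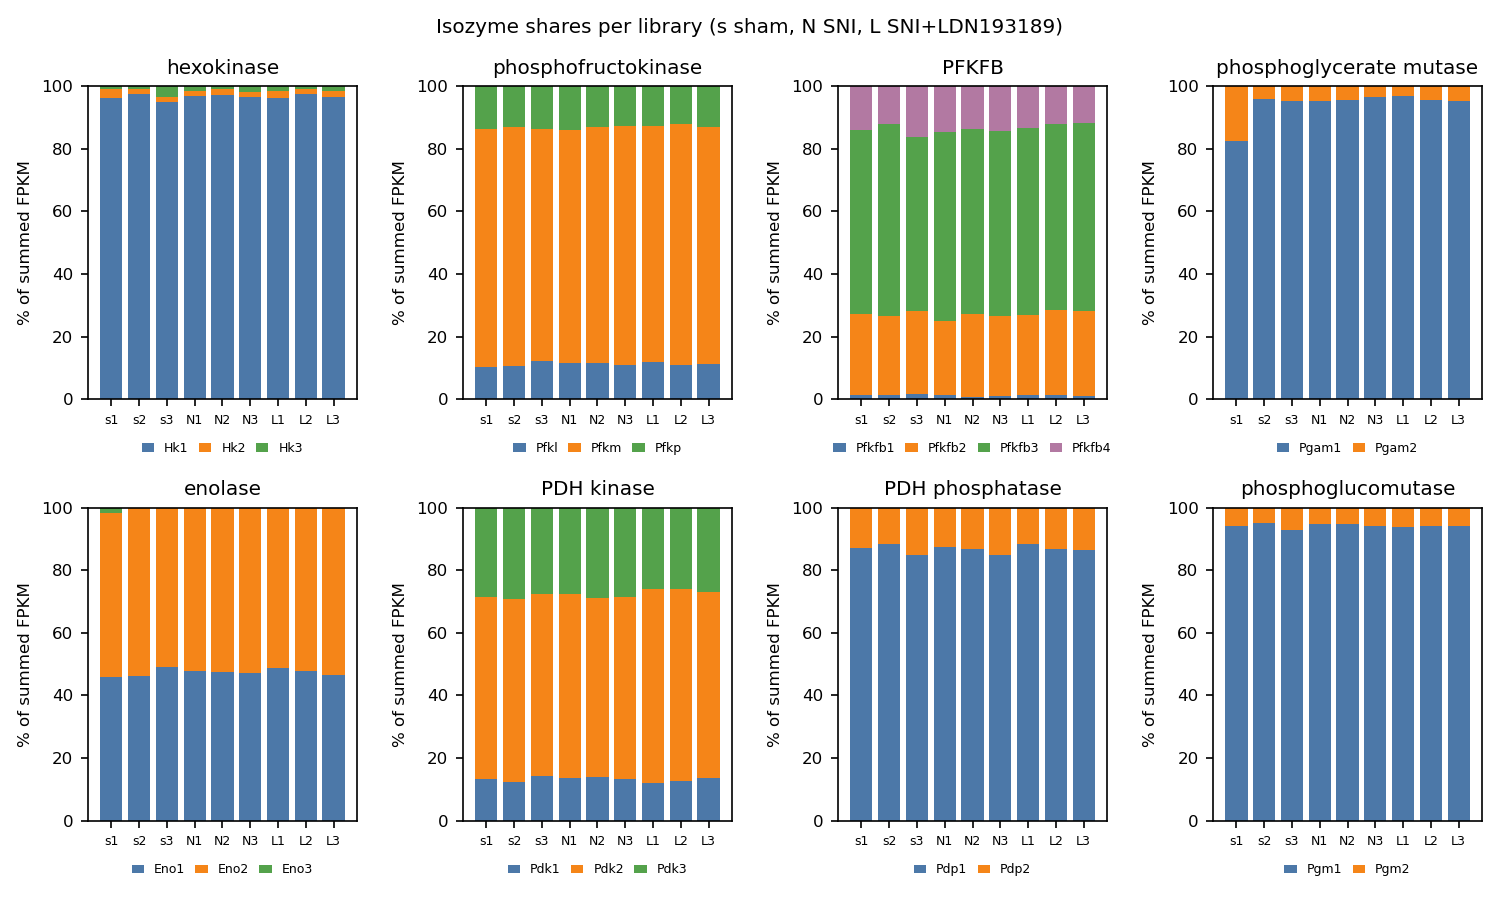
Share of each isozyme in the summed FPKM of its family, in percent, as stacked bars for the 9 libraries (s sham, N SNI, L SNI+LDN193189). Pdk4 is not part of the PDH kinase family here. The bars of a family look alike across groups, except for the larger Pgam2 share of s1 (17.5%).

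None of the 7 families tested differed between the groups after adjustment over them (exact permutation test of the F statistic, 1680 assignments, for which the smallest p is 0.00357). The smallest p was that of PDH kinase, summed here over Pdk1, Pdk2 and Pdk3 only. Pdk4, described below, was not in that sum, and shares with Pdk4 included were not tested. Pdk2 made up 58.2, 58.3 and 58.4% of the sum in sham, 58.7, 57.1 and 58.3% in SNI and 62.0, 61.4 and 59.4% in SNI+LDN193189. The treated libraries lay above the other 6 (means 58.3% ± 0.0933, 58.0% ± 0.825 and 60.9% ± 1.34, SD, n = 3 each; exact permutation p = 0.0286, adjusted p = 0.200). The other 6 families had an adjusted p of 0.925. The rank within PDH kinase depends on the gene length used: Pdk3 has 11490 bases in the deposited FPKM and 2561 bases of exon in GENCODE M21. By the latter length Pdk3 made up 67.5% and Pdk2 26.3%, and by CPM, with no length, 56.9% and 27.4%. The leading gene of the other families was the same by all 3 measures.

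Genes around the pathway, taken from 7 fixed lists, were read in the same fits. EdgeR called none of them in any comparison, and DESeq2 called 1, Slc2a1, in the joint test. At an unadjusted edgeR p under 0.05 the 7 lists held 0 to 2 genes each, apart from the tricarboxylic acid cycle described below. Among isozymes and paralogs outside the 33, 11 passed the filter and 7 of 11 were above 0 in SNI against sham. Pdk4, the PDH kinase linked to fasting and fat use, stood at 20.9, 19.0 and 19.9 CPM in sham, 19.0, 17.8 and 14.6 in SNI and 22.8, 16.6 and 30.3 in SNI+LDN193189, which overlapped (log2 fold change against SNI 0.44, edgeR adjusted p = 0.9996).

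In glucose import and lactate handling, 13 genes passed the filter and 6 were above 0 in SNI against sham and 5 in either comparison that holds SNI+LDN193189. Slc2a1, the GLUT1 glucose carrier of the blood-brain barrier and astrocytes, stood at 103, 125 and 123 CPM in sham, 119, 109 and 121 in SNI and 136, 136 and 169 in SNI+LDN193189. The treated libraries lay above all others, replicate 3 furthest, and the log2 fold change was 0.34 against SNI (edgeR adjusted p = 0.9996) and 0.33 against sham (edgeR adjusted p = 0.457). Of 8 endothelial markers, 6 were below 0 in both comparisons, with medians of -0.14 and -0.26. At an unadjusted edgeR p under 0.05 there were 3 and 5 of the 8, and DESeq2 called Kdr and Cldn5 against sham. Of 10 astrocyte markers, 6 were above 0 against SNI and 7 against sham, with medians of 0.03 and 0.02. Among them Gja1 was below 0 in both (-0.19 and -0.22). The part of either cell type in the Slc2a1 level was not tested. Of the lactate dehydrogenase genes, Ldha, the form that favours lactate, stood at 91.0, 80.9 and 79.5 CPM in sham, 77.9, 81.1 and 69.6 in SNI and 84.0, 66.3 and 70.2 in SNI+LDN193189, and all groups overlapped. Ldhb, the form that favours pyruvate, lay at 487 to 521 CPM in sham, 503 to 538 in SNI and 531 to 561 in SNI+LDN193189 (log2 fold change of SNI+LDN193189 against sham 0.11, edgeR adjusted p = 0.574).

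The tricarboxylic acid cycle, which receives the acetyl-CoA made by PDH, had 17 of 18 genes above 0 in SNI against sham (median 0.05), 15 of 18 in SNI+LDN193189 against SNI (median 0.03) and 18 of 18 in SNI+LDN193189 against sham (median 0.08). Idh3g, a subunit of isocitrate dehydrogenase, stood at 92.8, 95.2 and 94.5 CPM in sham, 98.6, 101 and 102 in SNI and 105, 111 and 100 in SNI+LDN193189, and sham lay below both (log2 fold change of SNI+LDN193189 against sham 0.16, edgeR adjusted p = 0.460). Sdhb, a subunit of succinate dehydrogenase, followed in that comparison (log2 fold change 0.12, edgeR adjusted p = 0.548). Of these 18 genes 5 had an unadjusted p under 0.05 in SNI+LDN193189 against sham, beside 8.56% of all genes, and none passed the adjusted threshold.

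Among 13 tested regulators of glycolytic genes, 5 were above 0 in SNI against sham and 8 in each of the others. Hif1a, the oxygen-sensitive subunit of HIF-1, stood at 23.9, 25.1 and 24.8 CPM in sham, 27.2, 27.5 and 28.2 in SNI and 25.8, 25.4 and 24.3 in SNI+LDN193189. The SNI libraries lay above all others (log2 fold change against sham 0.17, edgeR adjusted p = 0.927). Egln1, the prolyl hydroxylase that marks HIF-1 for decay, stood at 95.4, 94.4 and 91.7 CPM in SNI and 102, 104 and 99.6 in SNI+LDN193189 (log2 fold change 0.12, edgeR adjusted p = 0.9996). Txnip, an inhibitor of glucose uptake, was listed at 0.

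Of 10 glycogen genes, 4 were above 0 in SNI against sham. Pygl, liver-type glycogen phosphorylase, stood at 7.02, 8.56 and 12.0 CPM in sham, 5.41, 6.83 and 6.45 in SNI and 7.35, 8.00 and 6.87 in SNI+LDN193189 (log2 fold change of SNI against sham -0.56, edgeR adjusted p = 0.900). Its highest library was sham replicate 3. Stbd1, a glycogen-binding protein, had a log2 fold change of -0.77 (edgeR adjusted p = 0.927). In the pentose phosphate branch 3 of 7 genes were above 0 in SNI against sham and G6pdx was listed at 0, with H6pd (log2 fold change -0.23, edgeR adjusted p = 0.941) and Tkt (0.08, edgeR adjusted p = 0.941) having the smallest p. The 3 gluconeogenic genes tested were all above 0 in that comparison, with Pcx at a log2 fold change of 0.08 (edgeR adjusted p = 0.944) and G6pc3 at 0.06 (edgeR adjusted p = 0.962).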

How the data were processed

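The authors deposited a table of whole-number read counts per gene symbol and a table of FPKM made from them; per the submitters' processing notes reads were set on mm10, and the aligner, counter and annotation are not given in the sources used here. Per the labels' protocols RNA was selected by poly(A) and made into stranded libraries, in a text that speaks of cell lines. Counts were tested with edgeR 4.0.16 in R 4.3.3 (quasi-likelihood F test, robust, TMM factors 0.984 to 1.02, filterByExpr leaving 18245 genes, 1 fit of 9 libraries with 6 residual degrees of freedom, Benjamini-Hochberg over all genes, threshold 0.05), and the code was tested on simulated data. CPM values use the TMM factors. Intervals are 95% intervals of that fit. Isozyme shares came from the deposited FPKM and were compared by exact permutation tests, adjusted over 7 families. Named genes were the 5 with the smallest p in each comparison, the leading isozyme of each step, and up to 2 genes per pathway list; Pgam2, Hk3 and Ldha, and the marker genes Acta1, Ckm and Sprr1a, were added after their values were seen. Alternatives were DESeq2 1.42.0, limma 3.58.1 (voom, and log2 FPKM with pseudocounts of 1 and 0.1), other scalings and filters, covariates, a replicate block and leaving out each library. The 33 genes and the lists were chosen with earlier results of these data known. Gene positions are from GENCODE M21 (GRCm38), promoters from RefSeq (GRCm38.p6). One gene of these lists is not reported here.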

Additional observations from a re-analysis of the deposited data

How the results depend on the processing

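None of the 33 genes was called in any comparison under any of the 21 alternatives run (20 for the joint test), and the lowest adjusted p reached was 0.102 for SNI against sham, in the fit with a nerve root covariate. The 5 genes with the smallest p in each comparison kept their direction, with 1 exception: the log2 fold change of Eno3 in SNI against sham turned to 0.80 with the muscle level as a covariate and to 0.10 without sham replicate 1 (range -1.87 to 0.10 when each library was left out). Deviations of libraries with the same replicate number correlated at -0.109 to 0.144, with 2 of 9 pairs over 0.1. Of the 9 libraries 5 correlated best with their own number. Whether the replicate numbers pair the libraries was not tested. The fit with a replicate block called 0 of the 33 genes.

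Counts over all genes moved more. For SNI against sham, 0 genes became 24 with DESeq2, 13 with the nerve root covariate and 215 with the muscle covariate, and 0 to 38 when a library was left out (38 without sham replicate 1). For SNI+LDN193189 against SNI, 1 gene became 5 with DESeq2, 2 with voom, 0 with log2(FPKM + 1), 0 with log2(FPKM + 0.1), 2 with no filter, 3 with the 2 groups alone, 0 with the replicate block, 0 with the nerve root covariate, and 0 to 2 when a library was left out. For SNI+LDN193189 against sham, 3 genes became 72 with DESeq2, 1 with log2(FPKM + 1), 1 with log2(FPKM + 0.1), 30 with no filter, 14 with the nerve root covariate and 34 with the muscle covariate, and 1 to 17 when a library was left out (17 without SNI replicate 3). For the joint test, 1 gene became 78 with DESeq2, 0 with log2(FPKM + 1), 25 with no filter, 5 with the replicate block, 17 with the nerve root covariate and 144 with the muscle covariate, and 1 to 19 when a library was left out (19 without sham replicate 1). The cause of these shifts was not tested. At an unadjusted p under 0.05 the 33 genes held 0 in SNI against sham and 9 without sham replicate 2. The intervals of Hk3, Pfkfb1, Eno3 and Pgam2, among others, were too wide to show a 1.25-fold difference, and the standard error of Eno3 was 0.807 with sham replicate 1 and 0.185 without it. Other genes named in the report were not run under the alternatives one by one.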
